A study of Homo sapiens with 60 samples.

Results

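The 9 genes described here are CCN1, CCN2, ANKRD1, AMOTL2, ACTA2, TAGLN, CNN1, SMAD7 and ACTC1, a set of CCN-family, contractile and YAP or TGF-beta target genes. They were taken by symbol from a table of 60675 genes, and all 9 were among the 17680 genes that passed the filter on low counts and were tested. RNA from SW1783 (ATCC HTB-13), an established human astrocytoma line grown in Leibovitz's L-15 medium with fetal bovine serum, had been sequenced 24 h after addition of an ethanol extract or of the vehicle DMSO (0.1% per the sample labels). Each extract was given at a low, a medium and a high dose. Coptidis Rhizoma was used at 0.56, 2.8 and 14 µg/mL, and Bupleuri Radix at 8.4, 42 and 210 µg/mL. The other 4 herbs (Aconiti Lateralis Radix Preparata, Cimicifugae Rhizoma, Citri Unshius Pericarpium and Zizyphi Fructus) and both formulas, Banhasasim-tang and Yijung-tang, were used at 20, 100 and 500 µg/mL. Each herb is called by its first word below. Of the 60 libraries, 58 were used. Citri, Cimicifugae and Bupleuri had 3 libraries at each dose, and Aconiti had 3 at the low and medium doses and 2 at the high dose. Coptidis and Zizyphi had 2 at each dose, Yijung-tang had 2 at the high and medium doses and 1 at the low dose, Banhasasim-tang had 1 at each dose, and vehicle had 3.

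Both remaining libraries (low-dose Yijung-tang, replicate 1; high-dose Aconiti, replicate 1) stood apart from their group mates and were left out. On a scaling over all 60 libraries, TAGLN was at 383 CPM (counts scaled to library size) in the high-dose Aconiti library, against 198 to 211 CPM in its mates, and ANKRD1 was at 4.93 CPM, against 11.8 to 12.6 CPM. In the low-dose Yijung-tang library TAGLN was at 976 CPM, against 289 CPM in its only mate, and AMOTL2 was at 30.1 CPM, against 64.1 CPM. With both put back, of 41 calls among these genes between high dose and vehicle 27 held in the same direction, and of 41 calls between high and low dose 24 held. The calls that ended are named below. All groups share 1 estimate of the spread, and this setting also changed the adjusted p of comparisons that hold neither library. In those the log2 change itself moved little, as for AMOTL2 in high-dose Citri against vehicle, from 0.21 to 0.22.

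CCN1 and CCN2 are secreted matricellular proteins. They and ANKRD1 are standard readouts of YAP and TAZ, co-activators that enter the nucleus when Hippo kinase activity is low and bind DNA through TEAD factors. AMOTL2, itself induced by YAP, encodes an angiomotin that holds YAP in the cytoplasm. ACTA2 (smooth muscle alpha-actin), TAGLN (transgelin, an actin cross-linker) and CNN1 (calponin 1, which binds actin and tropomyosin) are contractile genes driven through SRF and its actin-sensing co-activators, the MRTFs, and by TGF-beta in fibroblasts and smooth muscle. SMAD7 is induced by TGF-beta and inhibits its receptors, and ACTC1 (cardiac alpha-actin) is another SRF target, used mostly by heart muscle.

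Promoter windows of 250 bases upstream of the start were read from RefSeq (GRCh38.p14) for the 7 genes with an entry; CCN1 and TAGLN are named only. Motifs were searched on both strands as exact letter patterns, and near matches were not counted. They were GGAATG or its reverse CATTCC (the core bound by TEAD factors) and the CArG box bound by SRF (CCWWWWWWGG, W being A or T). GTCTAGAC, a palindromic SMAD element, and TATAAA were searched as well. Of 35116 promoter windows of the same length, 11.9% held the TEAD-type core, 1.16% a CArG box, 0.182% the SMAD element and 10.7% TATAAA. The 4 windows below are those of CCN2, ANKRD1 and AMOTL2 that carry TEAD-type cores, and the ACTC1 window with a CArG box. ACTA2, which also moved in several extracts, had a window with a TEAD-type core that is described below but not shown. Capitals mark the TEAD-type cores and the CArG box, and every sequence runs 5′ to 3′ on the gene's own strand, which is minus for all 4.
CCN2, chr6:131951373-131951622: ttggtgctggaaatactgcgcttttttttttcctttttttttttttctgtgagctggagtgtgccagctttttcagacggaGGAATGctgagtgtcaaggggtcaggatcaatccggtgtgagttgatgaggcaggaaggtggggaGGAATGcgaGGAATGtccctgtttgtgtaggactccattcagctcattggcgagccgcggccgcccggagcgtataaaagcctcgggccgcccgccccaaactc
ANKRD1, chr10:90921088-90921337: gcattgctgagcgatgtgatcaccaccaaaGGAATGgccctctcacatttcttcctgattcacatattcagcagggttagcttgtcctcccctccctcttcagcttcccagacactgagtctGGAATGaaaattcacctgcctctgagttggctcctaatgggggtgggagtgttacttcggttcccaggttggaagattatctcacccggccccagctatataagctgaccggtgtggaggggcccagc
AMOTL2, chr3:134374448-134374697: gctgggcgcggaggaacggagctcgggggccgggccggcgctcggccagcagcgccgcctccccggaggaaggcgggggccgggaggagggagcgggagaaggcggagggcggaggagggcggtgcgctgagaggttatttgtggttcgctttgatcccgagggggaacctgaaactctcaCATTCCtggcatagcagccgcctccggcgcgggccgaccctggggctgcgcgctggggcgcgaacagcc
ACTC1, chr15:34795550-34795799: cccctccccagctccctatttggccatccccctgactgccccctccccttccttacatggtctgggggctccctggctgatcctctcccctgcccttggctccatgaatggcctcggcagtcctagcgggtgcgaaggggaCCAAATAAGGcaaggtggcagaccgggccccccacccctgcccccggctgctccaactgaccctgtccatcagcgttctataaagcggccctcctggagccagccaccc

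The CCN2 window held 3 GGAATG cores, starting 169, 104 and 95 bases before the start, and a TATAAA 32 bases before it. The ANKRD1 window held GGAATG at 220 and 128 bases, and the AMOTL2 window shown held CATTCC at 69 bases. The ACTC1 window shown held a CArG box at 109 bases and TATAAA at 31 bases. Among windows not shown, 1 of ACTA2 held GGAATG at 183 bases, another of ACTC1 held CATTCC at 174 bases, SMAD7 held TATAAA at 35 bases, and CNN1 held none of the motifs. The same ACTA2 window held ccctatatgg, which is close to the CArG pattern but was not counted. These are letter matches in a short window and no evidence of binding.

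Kept libraries had 15996157 to 30990264 counts. Levels are CPM of rounded expected counts scaled by edgeR's TMM factors, changes are log2 fold changes with their SE, and a gene is said to rise or fall where edgeR's Benjamini-Hochberg adjusted p over all 17680 genes was under 0.05. Nothing in the labels says that replicates came from separate cultures, so p-values measure the spread between these libraries, which may be technical. The library numbers place the extracts in sets (Coptidis with Zizyphi, Citri with Cimicifugae, Bupleuri with Aconiti, and the formulas), and vehicle belongs to none, so set and treatment cannot be told apart against vehicle; high and low doses share a set. Of 7 astrocyte markers, GFAP, S100B, AQP4, ALDH1L1 and SLC1A2 were at 0.0414, 0.190, 0.0158, 0.0365 and 0.335 CPM in vehicle, while GJA1 and SLC1A3, which other cell types also use, were at 240.2 and 33.6 CPM. All 10 fibroblast and pericyte markers exceeded 1 CPM, COL1A1 at 3459 CPM. In these bulk RNA samples fewer cells of a type and less RNA per cell cannot be told apart.

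In vehicle cells the 9 genes spanned a wide range of levels. Per kilobase of merged exons (GENCODE 29 models), CCN1 was highest at 84.1 CPM per kb, before TAGLN at 65.0, CCN2 at 42.1 and ACTA2 at 28.0 CPM per kb. AMOTL2 followed at 8.28, ANKRD1 at 6.36, SMAD7 at 4.42, CNN1 at 0.787 and ACTC1 at 0.232 CPM per kb. CCN1 (ENSG00000142871, plus strand) lies at chr1:85580761-85583962 of GRCh38, CCN2 (ENSG00000118523, minus) at chr6:131948176-131951373, and ANKRD1 (ENSG00000148677, minus) at chr10:90912096-90921276. ACTA2 (ENSG00000107796, minus) lies at chr10:88935074-88991339, TAGLN (ENSG00000149591, plus) at chr11:117199321-117204782 and CNN1 (ENSG00000130176, plus) at chr19:11538717-11550323. AMOTL2 (ENSG00000114019, minus) lies at chr3:134355874-134375479, SMAD7 (ENSG00000101665, minus) at chr18:48919853-48952052 and ACTC1 (ENSG00000159251, minus) at chr15:34788095-34795726. No label or header used here states whether counting used strand, so reads shared with overlapping genes on the other strand cannot be told apart: ACTA2 overlaps FAS (21.3 CPM in vehicle) and STAMBPL1 (12.0 CPM), and TAGLN overlaps PCSK7 (110.0 CPM). ACTA2 and ACTC1 are close copies of ACTB and ACTG1, at 7578 and 3830 CPM in vehicle, so ACTC1 in particular, at 1.07 CPM, is uncertain.

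**Figure D1:**
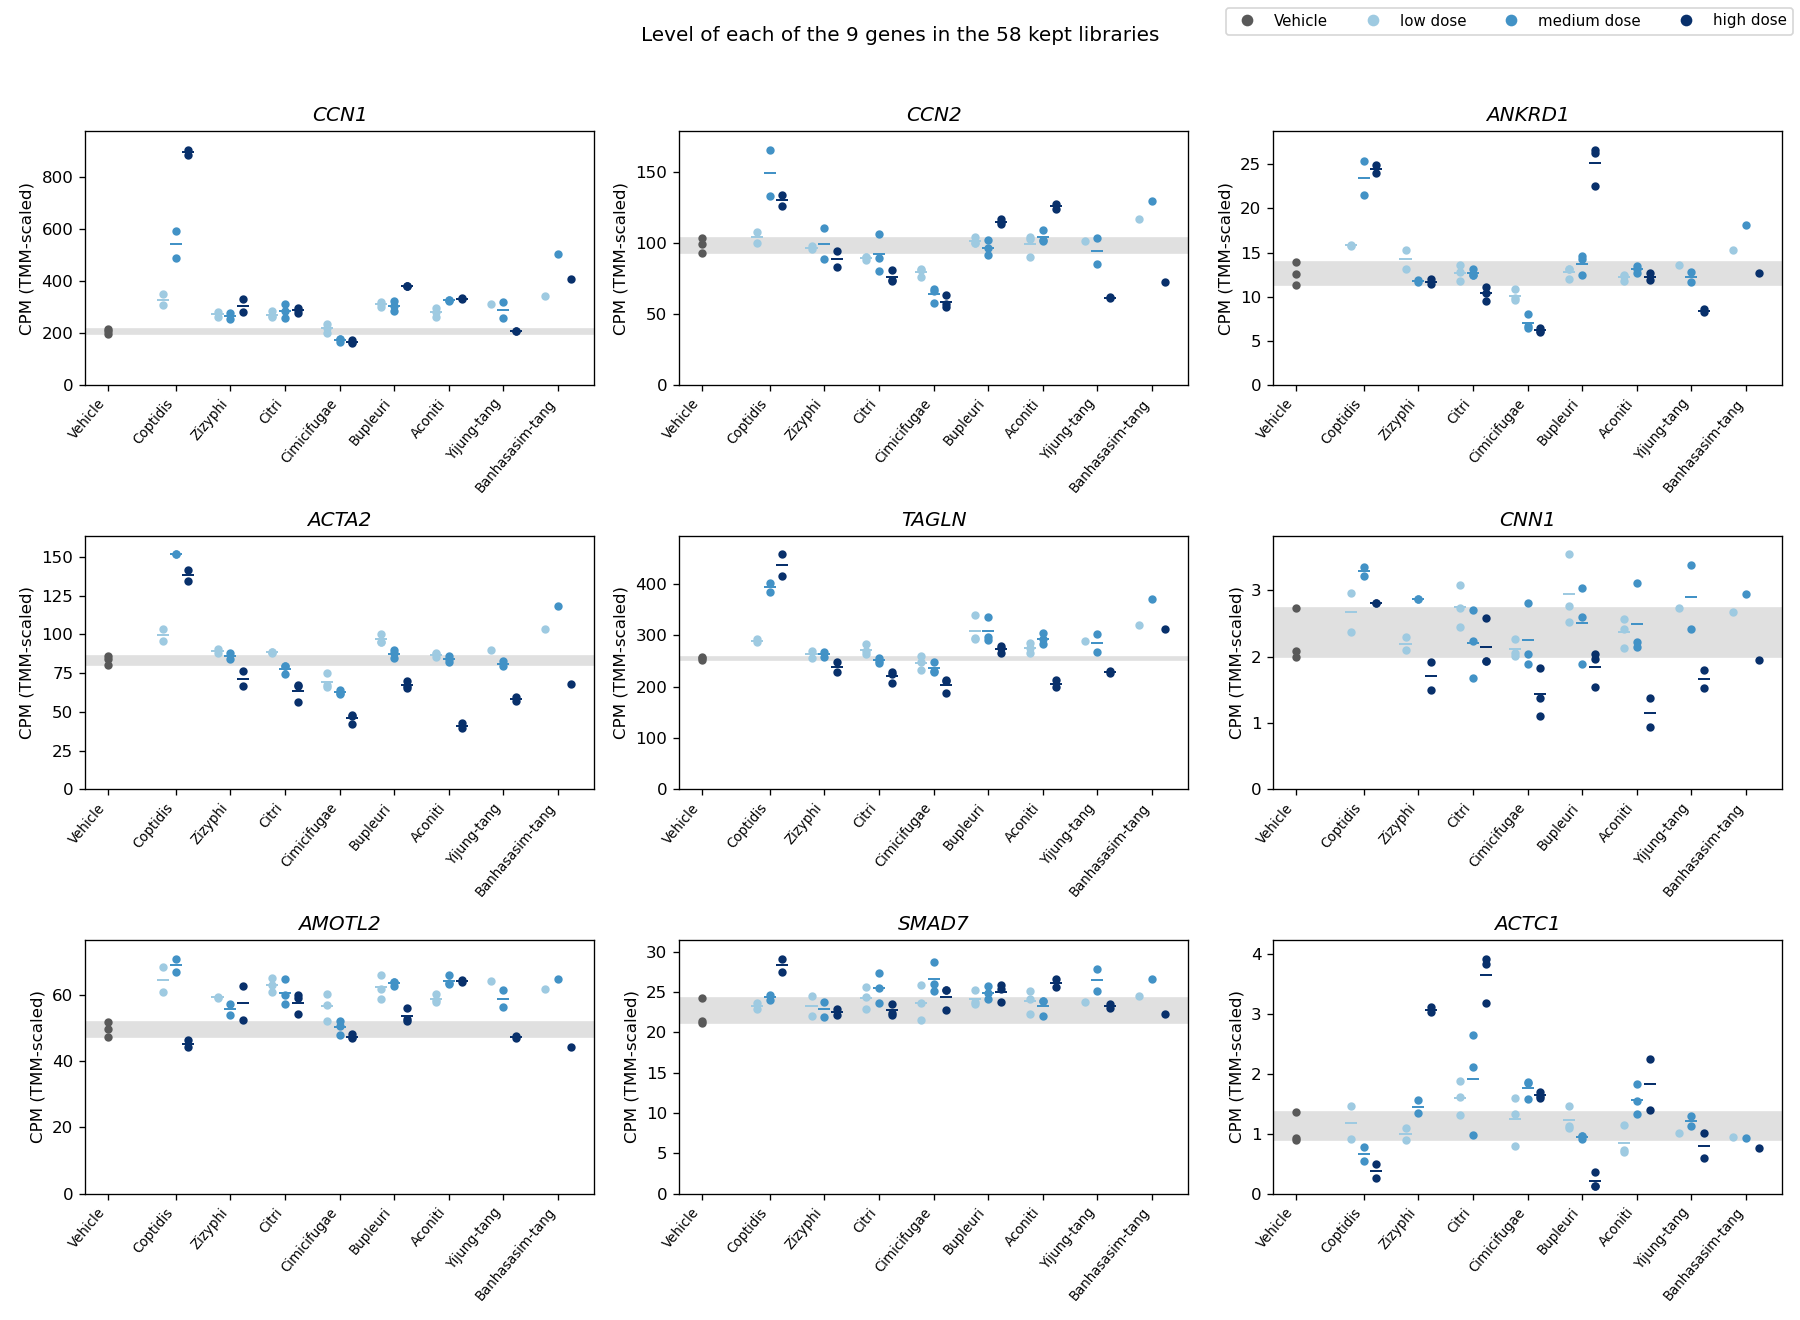
Level of each of the 9 genes (TMM-scaled CPM, linear axis, 1 panel per gene) in the 58 kept libraries, with vehicle first and then the low, medium and high dose of each extract. Points are libraries, short bars are group means and the grey band is the range of the vehicle libraries. High-dose Coptidis libraries stand at 885 and 903 CPM of CCN1, above every other library.

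Between the high and the low dose of an extract, which share a set, ACTA2 fell in 6 of 7 extracts and rose in Coptidis, and TAGLN fell in 5 and rose in Coptidis. ANKRD1 rose in Coptidis and Bupleuri and fell in Citri, Cimicifugae and Yijung-tang. ACTC1 rose in Zizyphi, Citri and Aconiti and fell in Coptidis and Bupleuri. For Yijung-tang the medium dose stands in for the low one, which had 1 library. In Coptidis 6 of the 9 genes rose and 2 fell, where 33.2% and 32.4% of all tested genes were called higher and lower. In Cimicifugae none rose and 6 fell, against 4.88% and 5.81% of all genes. Yijung-tang likewise had none higher and 7 lower, against 4.11% and 5.05%. Bupleuri had 2 higher and 5 lower, against 20.6% and 18.6%. Citri had 1 higher and 4 lower, against 6.44% and 7.34%. Aconiti had 3 higher and 3 lower, against 4.28% and 5.25%, and Zizyphi had 1 higher and 1 lower, against 3.12% and 4.28%. The median log2 change of the 9 genes was 0.33 in Coptidis, -0.12 in Zizyphi, -0.23 in Citri, -0.40 in Cimicifugae, -0.17 in Bupleuri, 0.13 in Aconiti and -0.49 in Yijung-tang, while that of all tested genes lay between -0.02 and 0.00 in each.

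Against vehicle, whose 3 libraries every extract shares, Coptidis at the high dose had 6 of the 9 genes higher and 1 lower, where 34% and 32.6% of all genes were called. Cimicifugae had none higher and 6 lower, against 16.5% and 19.2%. Yijung-tang had none higher and 4 lower, against 14.1% and 16.7%. Bupleuri had 4 higher and 2 lower, against 20.2% and 19.4%, and Aconiti 4 higher and 3 lower, against 12.7% and 15%. Citri had 3 higher and 4 lower, against 14.3% and 17.1%, and Zizyphi 3 higher and 1 lower, against 9.64% and 12%. At the medium dose 6 of the 9 genes passed the test in Coptidis (25.9% of all genes passed in either direction), 1 in Zizyphi (13.7%), 4 in Citri (17.9%), 6 in Cimicifugae (31.8%), 3 in Bupleuri (22.7%), 3 in Aconiti (26.2%) and 3 in Yijung-tang (15.3%). At the low dose 4 passed in Coptidis (7.32%), 2 in Zizyphi (11.8%), 2 in Citri (16.1%), 4 in Cimicifugae (20.8%), 4 in Bupleuri (26.9%) and 2 in Aconiti (20%). At these 2 doses every called gene was higher than in vehicle, with the exception of 4 genes at the medium and 3 at the low dose of Cimicifugae.

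Of the 41 calls at the high dose against vehicle, 14 ended or turned with the set-aside libraries put back. They were ACTA2 and AMOTL2 in Zizyphi (adjusted p 0.598 and 0.697), ANKRD1, TAGLN and AMOTL2 in Citri (0.383, 0.717 and 0.487), TAGLN and CNN1 in Cimicifugae (0.411 and 0.149), and CCN2, ACTA2 and SMAD7 in Bupleuri (0.147, 0.0702 and 0.273). In Aconiti they were CCN2, TAGLN and CNN1 (0.0618, 0.851 and 0.128), and in Yijung-tang TAGLN (0.849). Of 26 medium-dose calls 11 held: CCN1, CCN2, ANKRD1 and ACTA2 in Coptidis, CCN2, ANKRD1 and ACTA2 in Cimicifugae, and CCN1 in Citri, Bupleuri, Aconiti and Yijung-tang. Of 18 low-dose calls 3 held, all of them CCN1. Leaving out 1 library ended some calls at the high dose against vehicle as well: ACTC1 in Coptidis without its replicate 2 (adjusted p 0.0897), ACTA2 in Zizyphi without its replicate 3 (0.244), and AMOTL2 in Zizyphi without its replicate 2 (0.522) or vehicle replicate 1 (0.0547). ANKRD1 in Citri ended without its replicate 1 (0.0877) or vehicle replicate 3 (0.128), and CCN2 in Bupleuri without its replicate 2 (0.0621) or vehicle replicate 2 (0.117). CNN1 ended in Aconiti without its replicate 3 (log2 -0.71), and in Cimicifugae without its replicates 2 or 3 (0.0630 and 0.128) or vehicle replicate 3 (0.128). TAGLN in Yijung-tang ended without any 1 of its own or the vehicle libraries (0.0843 to 0.220). SMAD7 is given with the gene.

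**Figure D2:**
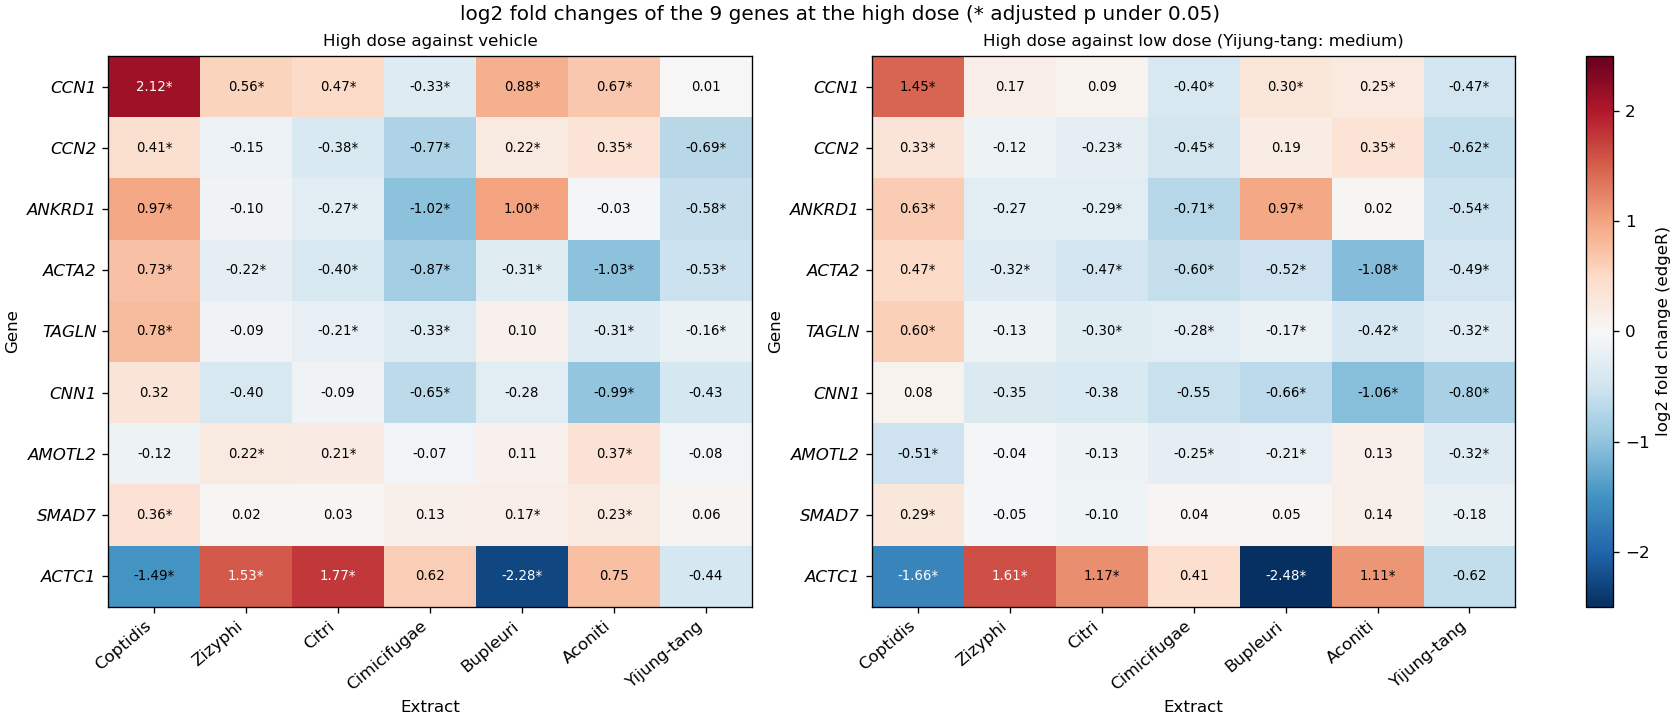
Log2 fold change (edgeR, printed and coloured) of the 9 genes (rows) at the high dose of each extract (columns), against vehicle in the left panel and against the low dose, or the medium dose of Yijung-tang, in the right panel; an asterisk marks an adjusted p under 0.05. ACTA2 is lower in 6 extracts and higher in Coptidis in both panels, and the most negative value, -2.48, is ACTC1 in Bupleuri.

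CCN1 rose with the dose of Coptidis, with the largest rise against vehicle among the 9 genes in the comparisons made. It was at 206, 197 and 216 CPM in vehicle, at 349 and 305 CPM in low-dose, 591 and 489 CPM in medium-dose and 903 and 885 CPM in high-dose Coptidis cells. No 2 of these groups overlapped. The high dose was 4.36-fold above vehicle (log2 2.12 ± 0.08, edgeR adjusted p = 3.39e-27) and 2.74-fold above the low dose (log2 1.45 ± 0.08, edgeR adjusted p = 1.44e-19). High-dose Bupleuri cells had 381, 381 and 378 CPM, against 317, 311 and 300.1 CPM in low-dose cells (log2 0.30 ± 0.07, edgeR adjusted p = 0.000358). High-dose Cimicifugae cells had 163, 172 and 159.7 CPM, against 199.6, 235 and 217 CPM in low-dose cells, all of them lower (log2 -0.40 ± 0.07, edgeR adjusted p = 7.11e-05). High-dose Yijung-tang cells had 207 and 209 CPM, against 258 and 318 CPM in medium-dose cells (log2 -0.47 ± 0.08, edgeR adjusted p = 0.000102). In Aconiti the high dose had 332 and 329 CPM, against 294, 279.9 and 261 CPM at the low dose (log2 0.25 ± 0.08, edgeR adjusted p = 0.0262). In Citri and Zizyphi the difference between doses was 0.09 ± 0.07 and 0.17 ± 0.08 and did not pass. These 5 calls held with both set-aside libraries put back. The call in Aconiti ended without any of 4 single libraries (high-dose replicates 2 and 3, low-dose replicates 2 and 3, adjusted p 0.167, 0.152, 0.0568 and 0.155), and that in Yijung-tang without medium-dose replicate 2 (log2 -0.31, edgeR adjusted p = 0.0509).

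At the low dose CCN1 was higher than in vehicle in 5 of the 6 extracts tested. The log2 difference was 0.67 ± 0.08 in Coptidis, 0.58 ± 0.07 in Bupleuri, 0.42 ± 0.07 in Aconiti, 0.39 ± 0.08 in Zizyphi and 0.38 ± 0.07 in Citri. These comparisons share the same vehicle libraries, which belong to no set, so set and treatment cannot be told apart in them. Low-dose Cimicifugae, at 0.07 ± 0.07, did not pass. With both set-aside libraries put back the calls in Coptidis, Bupleuri and Aconiti held, and those in Zizyphi and Citri had adjusted p of 0.164 and 0.0804. Between the high dose and vehicle CCN1 rose in Coptidis, Bupleuri (0.88 ± 0.07), Aconiti (0.67 ± 0.08), Zizyphi (0.56 ± 0.08) and Citri (0.47 ± 0.07), and fell in Cimicifugae (-0.33 ± 0.07), and all 6 calls held with those libraries. In high-dose Yijung-tang cells it was at 207 and 209 CPM, within the range of the vehicle libraries (log2 0.01 ± 0.08).

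CCN2 moved over a narrower range than CCN1. It fell in Cimicifugae, where cells had 56.6, 63.1 and 54.6 CPM at the high dose, against 76.3, 81.0 and 81.3 CPM at the low dose (log2 -0.45 ± 0.08, edgeR adjusted p = 0.000138) and 99.0, 92.9 and 104 CPM in vehicle (log2 -0.77 ± 0.08, edgeR adjusted p = 8.93e-10). High-dose Yijung-tang cells had 61.1 and 61.7 CPM, against 85.0 and 103 CPM at the medium dose (log2 -0.62 ± 0.10, edgeR adjusted p = 1.75e-05). In neither extract did the high-dose libraries overlap those they were set against. High-dose Coptidis cells had 126 and 134 CPM, against 108 and 99.7 CPM at the low dose (log2 0.33 ± 0.10, edgeR adjusted p = 0.00296), and the medium dose, at 165 and 133 CPM, was the highest group of all. High-dose Aconiti cells had 128 and 124 CPM, against 102, 104 and 90.2 CPM at the low dose (log2 0.35 ± 0.09, edgeR adjusted p = 0.00449). In Bupleuri the difference between doses, 0.19 ± 0.08, did not pass, and in Zizyphi it was -0.12 ± 0.10. The fall in Citri (-0.23 ± 0.08, edgeR adjusted p = 0.0451) ended without any of 5 single libraries: low-dose replicates 1, 2 and 3 (adjusted p 0.0760, 0.101 and 0.112) and high-dose replicates 2 and 3 (0.164 and 0.147). The rise in Coptidis ended without low-dose replicate 3 (0.26, adjusted p 0.0595). That in Aconiti ended without high-dose replicate 2 (0.33, adjusted p 0.0686), without low-dose replicate 3 (0.29, adjusted p 0.0564) and with the set-aside libraries put back (0.24, adjusted p 0.123). With those libraries the calls in Coptidis, Cimicifugae and Yijung-tang held, and that in Citri did not (adjusted p 0.465). On plain library totals the CCN2 means in Coptidis were 109 CPM at the high and 104 CPM at the low dose. The size of the Coptidis rise therefore depended on the scaling.

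ANKRD1, a muscle ankyrin repeat protein and YAP target, rose in 2 extracts and fell in 3 between doses. It was at 26.6, 22.5 and 26.3 CPM in high-dose Bupleuri cells, against 13.2, 12.0 and 13.1 CPM at the low dose, which is 1.97-fold (log2 0.97 ± 0.08, edgeR adjusted p = 8.96e-15). The medium dose of Bupleuri, at 14.6, 14.2 and 12.4 CPM, lay near the low one and near vehicle (12.6, 11.3 and 13.9 CPM). In Coptidis the rise was present at the medium dose: vehicle was followed by 15.7 and 15.9 CPM at the low, 25.4 and 21.5 CPM at the medium and 24.9 and 24.0 CPM at the high dose (high against low, log2 0.63 ± 0.09, edgeR adjusted p = 7.76e-08). High-dose Cimicifugae cells had 6.11, 5.96 and 6.50 CPM, against 9.84, 9.60 and 10.9 CPM at the low dose (log2 -0.71 ± 0.10, edgeR adjusted p = 8.58e-07). The groups of libraries did not overlap in any of these 3 comparisons. High-dose Yijung-tang cells had 8.61 and 8.24 CPM, against 11.6 and 12.8 CPM at the medium dose (log2 -0.54 ± 0.11, edgeR adjusted p = 0.00036). In Aconiti, the set mate of Bupleuri, the difference was 0.02 ± 0.09 and did not pass, and in Zizyphi it was -0.27 ± 0.10 (edgeR adjusted p = 0.0975). The fall in Citri (-0.29 ± 0.08, edgeR adjusted p = 0.0144) ended without high-dose replicate 1 (-0.23, adjusted p 0.102) or low-dose replicate 1 (-0.24, adjusted p 0.0899). With the set-aside libraries put back the calls in Coptidis, Cimicifugae and Bupleuri held, and those in Citri and Yijung-tang did not (adjusted p 0.636 and 0.383).

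AMOTL2 was higher than in vehicle at the low dose of every extract tested, and lower at the high than at the low dose of 3. The comparisons with vehicle share the same vehicle libraries, so set and treatment cannot be told apart in them. Vehicle cells had 47.2, 49.8 and 51.7 CPM and every low-dose library of the 6 herbs exceeded them, as in Bupleuri with 66.0, 61.8 and 58.9 CPM and Citri with 60.9, 65.1 and 62.9 CPM. The log2 rise over vehicle was 0.39 ± 0.06 in Coptidis, 0.34 ± 0.06 in Citri, 0.32 ± 0.05 in Bupleuri, 0.26 ± 0.06 in Zizyphi, 0.24 ± 0.06 in Aconiti and 0.18 ± 0.06 in Cimicifugae. The rise in Cimicifugae ended without vehicle replicate 1 (0.16, adjusted p 0.0912) or its own replicate 2 (0.14, adjusted p 0.122), and that in Zizyphi without its replicate 3 (0.27, adjusted p 0.0586). With the set-aside libraries put back none of the 6 passed (adjusted p 0.435 to 0.920). None of these comparisons holds either library, and the log2 rises were then between 0.19 in Cimicifugae and 0.38 in Coptidis. High-dose Coptidis cells had 44.2 and 46.4 CPM, against 68.4 and 60.7 CPM at the low dose (log2 -0.51 ± 0.07, edgeR adjusted p = 9.26e-09), a call that held with those libraries. AMOTL2 also fell between the low and the high dose of Cimicifugae (-0.25 ± 0.05) and Bupleuri (-0.21 ± 0.05), and between the doses of Yijung-tang (-0.32 ± 0.07), and these calls ended with both libraries put back (adjusted p 0.864, 0.387 and 1). The call in Yijung-tang also ended without medium-dose replicate 2 (-0.25, adjusted p 0.0575). High-dose Aconiti cells kept 64.0 and 64.4 CPM, both above vehicle (log2 0.37 ± 0.06, edgeR adjusted p = 7.47e-06, and 0.63 with the library put back), and their difference from the low dose, 0.13 ± 0.06, did not pass.

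ACTA2 was the contractile gene that fell in the most extracts. In Aconiti it was at 42.6 and 39.6 CPM at the high dose, against 87.9, 87.5 and 85.5 CPM at the low dose (log2 -1.08 ± 0.06, edgeR adjusted p = 1.13e-17), and the medium dose, at 86.1, 83.9 and 82.1 CPM, lay close to the vehicle range of 80.1 to 86.0 CPM. Cimicifugae cells had 65.9, 75.1 and 67.0 CPM at the low dose, 62.4, 61.4 and 64.0 CPM at the medium and 47.3, 42.3 and 47.8 CPM at the high dose (high against low, log2 -0.60 ± 0.05, edgeR adjusted p = 4.12e-11). Each of these groups was below vehicle. High-dose Bupleuri cells had 67.0, 70.1 and 65.2 CPM, against 95.1, 95.3 and 100.1 CPM at the low dose (log2 -0.52 ± 0.05, edgeR adjusted p = 1.67e-11). High-dose Citri cells had 67.3, 56.1 and 66.9 CPM, against 88.5, 88.6 and 88.1 CPM at the low dose (log2 -0.47 ± 0.05, edgeR adjusted p = 5.13e-09). High-dose Yijung-tang cells had 59.4 and 56.9 CPM, against 82.8 and 79.4 CPM at the medium dose (log2 -0.49 ± 0.06, edgeR adjusted p = 3.76e-07). Coptidis went the other way, with 135 and 141 CPM at the high dose, against 104 and 95.8 CPM at the low dose (log2 0.47 ± 0.06, edgeR adjusted p = 5.41e-09), and its medium dose was higher still at 152 CPM in both libraries. The fall in Zizyphi (-0.32 ± 0.06, edgeR adjusted p = 0.00077) ended without high-dose replicate 3 (-0.23, adjusted p 0.102). With the set-aside libraries put back the calls in Coptidis, Citri, Cimicifugae, Bupleuri and Aconiti held (in Aconiti at log2 -0.83), and those in Zizyphi and Yijung-tang did not (adjusted p 0.803 and 0.169).

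TAGLN and CNN1 changed between doses in fewer extracts than ACTA2. TAGLN was at 415 and 457 CPM in high-dose Coptidis cells, against 292 and 286 CPM at the low dose (log2 0.60 ± 0.07, edgeR adjusted p = 1.79e-10) and 252 to 257 CPM in vehicle. It fell in Aconiti, where high-dose cells had 212 and 199 CPM, against 285, 275 and 265 CPM at the low dose (log2 -0.42 ± 0.06, edgeR adjusted p = 3.33e-06). With the set-aside libraries put back the Aconiti value was -0.05 (adjusted p 0.877), the returned high-dose library being at 383 CPM. TAGLN also fell in Citri (-0.30 ± 0.06), Cimicifugae (-0.28 ± 0.06), Yijung-tang (-0.32 ± 0.07) and Bupleuri (-0.17 ± 0.06), and of all the TAGLN calls between doses that in Coptidis alone held with both libraries. The fall in Bupleuri ended without low-dose replicate 3 (-0.10, adjusted p 0.192), and that in Yijung-tang without medium-dose replicate 2 (-0.22, adjusted p 0.114). In Zizyphi the difference was -0.13 ± 0.07 and did not pass.

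CNN1 had few reads, 24 to 98 counts per library. It was at 1.38 and 0.934 CPM in high-dose Aconiti cells, against 2.57, 2.13 and 2.42 CPM at the low dose (log2 -1.06 ± 0.24, edgeR adjusted p = 0.00194). High-dose Bupleuri cells had 1.53, 1.96 and 2.05 CPM, against 2.77, 3.54 and 2.52 CPM at the low dose (log2 -0.66 ± 0.19, edgeR adjusted p = 0.00517), and in Yijung-tang the difference was -0.80 ± 0.24 (edgeR adjusted p = 0.0228). The groups did not overlap in these 3 extracts. None of the 3 calls held with both set-aside libraries put back (adjusted p 0.133, 0.0566 and 0.506). Leaving out a single library ended each of them too: high-dose replicate 3 of Aconiti (-0.78, adjusted p 0.153), low-dose replicate 2 of Bupleuri (-0.51, adjusted p 0.0529), and in Yijung-tang high-dose replicate 1 or 2 or medium-dose replicate 1 (adjusted p 0.197, 0.0748 and 0.382). In Coptidis the difference was 0.08 ± 0.23, in Zizyphi -0.35 ± 0.25, in Citri -0.38 ± 0.19 and in Cimicifugae -0.55 ± 0.22, and none passed.

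SMAD7, the inhibitory SMAD, moved little: every kept library lay between 21.1 and 29.1 CPM. It rose between doses in Coptidis alone, with 27.5 and 29.1 CPM at the high dose, against 22.9 and 23.6 CPM at the low dose (log2 0.29 ± 0.08, edgeR adjusted p = 0.00133), a call that held with both set-aside libraries. Vehicle had 21.1, 21.4 and 24.2 CPM. On plain library totals the SMAD7 means were 23.7 CPM at the high and 23.2 CPM at the low dose of Coptidis, and 22.5 CPM in vehicle. The size of the Coptidis rise therefore depended on the scaling. Against vehicle SMAD7 also rose at the high dose of Aconiti (0.23 ± 0.07), a call that held with both set-aside libraries and ended without vehicle replicate 1 or 2 (adjusted p 0.0629 and 0.0574) or its own replicate 3 (0.113). The rise at the high dose of Bupleuri (0.17 ± 0.07), whose libraries overlapped those of vehicle, ended without 4 single libraries: vehicle replicates 1 and 2 (adjusted p 0.157 and 0.144) and its own replicates 1 and 3 (0.085 and 0.124). It also ended with DESeq2 (adjusted p 0.0581) and with both set-aside libraries (0.273).

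ACTC1 showed the widest spread of changes of the 9 genes, at levels of a few CPM or less. Vehicle cells had 1.37, 0.899 and 0.931 CPM, from 24, 19 and 15 counts. High-dose Bupleuri cells had 0.132, 0.363 and 0.125 CPM, from 3, 10 and 3 counts, against 1.09, 1.47 and 1.14 CPM, from 26, 34 and 32 counts, at the low dose (log2 -2.48 ± 0.39, edgeR adjusted p = 8.79e-07). High-dose Coptidis cells had 0.255 and 0.496 CPM, from 5 and 9 counts, against 1.47 and 0.906 CPM at the low dose (log2 -1.66 ± 0.46, edgeR adjusted p = 0.00158). In both extracts the high-dose libraries lay below every low-dose and vehicle library. High-dose Citri cells had 3.18, 3.92 and 3.84 CPM, from 82, 85 and 115 counts, against 1.31, 1.62 and 1.88 CPM at the low dose (log2 1.17 ± 0.23, edgeR adjusted p = 0.000217). High-dose Zizyphi cells had 3.11 and 3.03 CPM, from 73 and 69 counts, against 1.10 and 0.891 CPM at the low dose (log2 1.61 ± 0.31, edgeR adjusted p = 0.000416). These libraries were above every low-dose and vehicle library. In Aconiti the high dose had 2.25 and 1.40 CPM, against 1.14, 0.726 and 0.692 CPM at the low dose (log2 1.11 ± 0.31, edgeR adjusted p = 0.012). The differences in Cimicifugae (0.41 ± 0.27) and Yijung-tang (-0.62 ± 0.36) did not pass.

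All 5 ACTC1 calls between doses held with the set-aside libraries put back. The Coptidis call ended without high-dose replicate 2 (-1.25, adjusted p 0.0522). That in Aconiti ended without high-dose replicate 2 (0.75, adjusted p 0.309) or low-dose replicates 2 or 3 (adjusted p 0.0519 and 0.0976). Without high-dose replicate 2 the Bupleuri value was -3.20. Markers of heart muscle stayed near 0: their summed level was 0 to 0.197 CPM over all kept libraries and TNNT2 was at 0 in all 58. ACTA1, the skeletal alpha-actin, was at 0.0208 CPM in vehicle.

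Summed levels of several marker lists moved between doses in the same extracts. The summed level of 10 fibroblast and pericyte markers was lower at the high dose of every extract: 1976 to 2051 CPM in high-dose Coptidis cells, against 6423 to 6597 CPM at the low dose, and 3370 to 3509 CPM in high-dose Bupleuri cells, against 6875 to 7265 CPM. It was 4815 to 4990 CPM in high-dose Aconiti cells, against 6956 to 7042 CPM, and 5492 to 5694 CPM in high-dose Yijung-tang cells, against 6599 to 6610 CPM at the medium dose. The falls in Zizyphi, Citri and Cimicifugae were smaller, with high-dose libraries at 5660 to 6251, 5850 to 6015 and 5819 to 6148 CPM, against 6661 to 6775, 6869 to 6949 and 6651 to 7404 CPM at the low dose. Vehicle libraries had 6431 to 6609 CPM. Most of that sum was COL1A1 (3459 CPM) and COL1A2 (2195 CPM), which are also on the TGF-beta target list below.

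The smooth muscle list summed to 83.5 to 85.4 CPM in high-dose Coptidis cells, against 109 to 115 CPM at the low dose, and to 122 to 127 CPM in high-dose Aconiti cells, against 109 to 119 CPM. In Bupleuri it was 127 to 138 CPM at the high dose, against 113 to 121 CPM at the low dose. It was also higher at the high dose of Zizyphi and Citri, at 124 to 138 and 119.7 to 122 CPM, against 114 to 115 and 107 to 112 CPM, and lower at that of Yijung-tang, at 92.6 to 102 CPM, against 110.1 to 112 CPM at the medium dose. The astrocyte list summed to 316 to 330 CPM in high-dose Bupleuri cells, against 233 to 246 CPM at the low dose. The leukocyte and microglia list summed to 269 to 281 CPM in high-dose Coptidis cells, against 184 to 189 CPM, and to 252 to 276 CPM in high-dose Bupleuri cells, against 176 to 196 CPM. Epithelial markers summed to 8.85 to 9.75 CPM in high-dose Bupleuri cells, against 22.4 to 25.5 CPM, and endothelial ones to 36.3 to 38.4 CPM, against 22.7 to 27.9 CPM. In vehicle the smooth muscle sum was mostly SMTN (102 CPM) and the leukocyte and microglia sum mostly CD68 (134 CPM). The epithelial sum was mostly KRT8 (19.2 CPM), the endothelial one mostly KDR (26.6 CPM) and the astrocyte one mostly GJA1 (240 CPM). DES, AIF1, EPCAM and CDH5 were at 0.0713, 0, 0.019 and 0 CPM, while PTPRC was at 13.4 CPM. These sums are therefore no measure of a cell type. The part of these markers in the changes of the 9 genes was not tested.

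Within a set, the change from low to high dose was compared between the extracts. For Coptidis against Zizyphi it differed in 8 of the 9 genes, where 55.3% of all genes differed: 6 were higher in Coptidis, led by CCN1 (1.28 ± 0.12, edgeR adjusted p = 1.07e-12), and AMOTL2 (-0.47 ± 0.09) and ACTC1 (-3.27 ± 0.55) were lower. For Bupleuri against Aconiti 5 genes differed, where 23.4% of all genes did: ANKRD1 (0.95 ± 0.12, edgeR adjusted p = 1.79e-08), ACTA2 (0.56 ± 0.08) and TAGLN (0.24 ± 0.08) had the higher change in Bupleuri, and AMOTL2 (-0.34 ± 0.08) and ACTC1 (-3.59 ± 0.50) the lower. For Citri against Cimicifugae CCN1 alone differed (0.49 ± 0.10, edgeR adjusted p = 0.00355), where 1.07% of all genes did; ACTA2, which fell in both, differed by 0.12 ± 0.08. Doses are not matched between Coptidis and Zizyphi or between Bupleuri and Aconiti, so these tests compare each extract's own dose range.

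With both set-aside libraries put back, 7 of the 14 differences between extracts held. They were CCN1, ANKRD1, ACTA2 and ACTC1 for Coptidis against Zizyphi, and ANKRD1, AMOTL2 and ACTC1 for Bupleuri against Aconiti. ACTA2 for Bupleuri against Aconiti was then 0.31 (adjusted p 0.222), TAGLN was -0.12 (adjusted p 0.802), and CCN1 for Citri against Cimicifugae had an adjusted p of 0.594. TAGLN for Bupleuri against Aconiti also ended without any of 5 single libraries: high-dose replicate 1 or low-dose replicates 1 or 2 of Bupleuri (adjusted p 0.0610, 0.0841 and 0.0683), and low-dose replicate 1 or high-dose replicate 3 of Aconiti (0.0734 and 0.170). CCN2 for Coptidis against Zizyphi ended without high-dose replicate 3 of Zizyphi (0.35, adjusted p 0.0537) and SMAD7 without its low-dose replicate 2 (0.25, adjusted p 0.102).

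Over the 21 group means of log2 CPM, CCN1, CCN2 and ANKRD1 moved alike, as did ACTA2, TAGLN and CNN1. TAGLN also moved with CCN1 and ANKRD1, so these trios were not separate. This is a description, since groups share set and scaling. Pearson's r was 0.92 for ACTA2 and TAGLN, 0.88 for ACTA2 and CNN1, 0.89 for CCN2 and ANKRD1, 0.87 for CCN1 and ANKRD1, and 0.81 for CCN1 and CCN2. AMOTL2, SMAD7 and ACTC1 reached at most 0.49, 0.41 and 0.23 with any of the others. CCN1 and TAGLN were at 0.81 and ANKRD1 and TAGLN at 0.77, against 0.765 for TAGLN and CNN1, while CCN1 and CNN1 were at 0.38. ANKRD1 and ACTA2 were at 0.69, ANKRD1 and ACTC1 at -0.66, and SMAD7 and ACTA2 at 0.06. Among the other tested genes, TAGLN was most like MYL9 (0.98), ACTG1 (0.94) and COTL1 (0.94), and ACTA2 most like MYL9 (0.94), MSN (0.93) and PFN2 (0.91). The genes most like CCN1 were CD274 (0.93), VARS1 (0.93) and BNC1 (0.92), those most like CCN2 were S1PR1 (0.90), HBEGF (0.86) and PDGFA (0.86), and those most like ANKRD1 were FGF1 (0.93), MEMO1 (0.91) and S1PR1 (0.91). CNN1 was most like MSRA (0.87) and TPM2 (0.87), AMOTL2 most like NUAK2 (0.85), SMAD7 most like USP19 (0.82), and ACTC1 most like RTTN (0.93) and LRP11 (0.92).

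**Figure D3:**
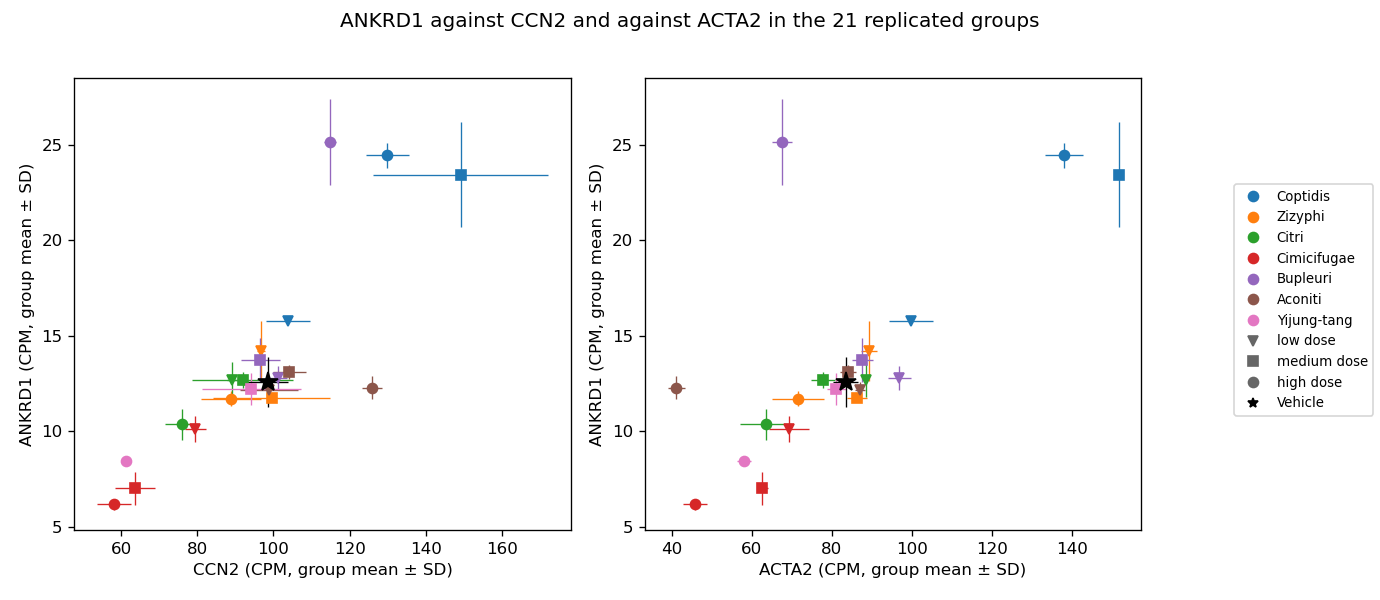
ANKRD1 level against CCN2 level (left) and ACTA2 level (right) in the 21 replicated groups (CPM, mean with SD bars in both directions; colour gives the extract, shape the dose, and the star is vehicle). High-dose Bupleuri has an ANKRD1 mean of 25.2 CPM, near that of both higher Coptidis doses, at an ACTA2 mean of 67.4 CPM, where high-dose Coptidis has 138 CPM.

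The other genes of these pathways were described by counts between high and low dose, members left out. Of 21 further SRF and MRTF cytoskeletal targets, 14 fell and none rose in Cimicifugae, 13 fell and none rose in Citri and in Yijung-tang, 12 fell and 1 rose in Aconiti, and 8 fell and none rose in Zizyphi. In Coptidis 11 rose and 7 fell, and in Bupleuri 6 rose and 7 fell. The shares of all genes called lower were 5.81% in Cimicifugae, 7.34% in Citri, 5.05% in Yijung-tang, 5.25% in Aconiti, 4.28% in Zizyphi, 32.4% in Coptidis and 18.6% in Bupleuri. The shares called higher were 33.2% in Coptidis, 20.6% in Bupleuri and 3.12% to 6.44% in the others. ACTG1, cytoplasmic gamma-actin, fell in Cimicifugae (-0.49 ± 0.03), Aconiti (-0.54 ± 0.04), Citri (-0.30 ± 0.03) and Zizyphi (-0.25 ± 0.04). TPM1, a tropomyosin, fell in the same 4 extracts and in Yijung-tang (-0.32 ± 0.04). Genes are named where they had the smallest p, so they may also have changed in extracts not listed. In Coptidis SRF itself rose by 1.60 and TPM4 by 0.94 on the log2 scale, while MRTFA and MRTFB changed by -0.72 and -1.22. The median log2 change of the whole SRF list of 25 genes, members included, was 0.39 in Coptidis and between -0.24 and -0.13 in the other extracts, while the median of all genes lay between -0.02 and 0.00. With the set-aside libraries put back, a setting added after seeing the data, fewer of the 21 were called. The falls then numbered 2 in Cimicifugae, 1 in Citri, 0 in Yijung-tang, 4 in Aconiti, 0 in Zizyphi, 5 in Bupleuri and 3 in Coptidis. The rises numbered 10 in Coptidis and 1 in Bupleuri. Calls over all genes, summed over these comparisons, fell too, from 27462 to 12073. That sum is not split by extract, so whether the drop in this list exceeded that over all genes was not tested.

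Of 18 further YAP and TEAD targets, 11 rose and 5 fell in Coptidis, 7 rose and 7 fell in Bupleuri, 2 rose and 6 fell in Cimicifugae, and none rose and 5 fell in Yijung-tang. Citri had 2 higher and 4 lower, Aconiti 3 higher and 5 lower, and Zizyphi 1 higher and none lower. Of all genes, 33.2% and 32.4% were called higher and lower in Coptidis and 20.6% and 18.6% in Bupleuri. In the other extracts 3.12% to 6.44% of all genes were called higher and 4.28% to 7.34% lower. Once the set-aside libraries were put back, the YAP and TEAD targets that rose and fell numbered 8 and 3 in Coptidis and 4 and 2 in Bupleuri. They numbered 1 and 0 in Cimicifugae and 2 and 3 in Aconiti, and none was called in Citri, Yijung-tang or Zizyphi. The shares of all genes above are those without these libraries, so the put-back counts have no background beside them. In Coptidis GADD45A rose by 2.57 and IGFBP3 by 0.95, and RBMS3 was at -1.18. F3, tissue factor, rose by 0.83 ± 0.05 in Bupleuri. CCDC80 was among the falls with the smallest p in 5 extracts, with log2 changes of -0.86 ± 0.03 in Bupleuri, -0.48 ± 0.04 in Aconiti, -0.33 ± 0.04 in Yijung-tang, -0.24 ± 0.03 in Citri and -0.23 ± 0.03 in Cimicifugae. Of the 4 other CCN genes, 3 rose and 1 fell in Coptidis. CCN3 and CCN5 rose in Coptidis (0.83 ± 0.10 and 1.59 ± 0.55) and Bupleuri (1.43 ± 0.07 and 1.81 ± 0.38), and CCN3 fell in Zizyphi (-0.79 ± 0.11). CCN4 fell in Coptidis (-4.15 ± 0.16), Zizyphi (-0.56 ± 0.09), Citri (-0.49 ± 0.07) and Bupleuri (-0.43 ± 0.07). With the set-aside libraries put back, rises and falls of these genes numbered 2 and 1 in Coptidis and Bupleuri, and 0 and 1 in Zizyphi and Citri. Of 19 Hippo kinases, adaptors and TEAD factors, 7 rose and 9 fell in Coptidis and 7 rose and 4 fell in Bupleuri, with at most 2 in either direction elsewhere. Put-back counts were 3 and 5 in Coptidis, 1 and 2 in Bupleuri and 0 elsewhere. YAP1 rose by 0.72 in Coptidis and by 0.25 ± 0.04 in Bupleuri, STK4, a Hippo kinase, by 0.95 and 0.54 ± 0.04, and WWTR1, which encodes TAZ, was at -0.91 in Coptidis.

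Of 25 further TGF-beta target and feedback genes, 11 rose and 12 fell in Coptidis, 5 rose and 13 fell in Bupleuri, 6 rose and 7 fell in Aconiti, 3 rose and 7 fell in Citri, 2 rose and 7 fell in Yijung-tang, 2 rose and 4 fell in Cimicifugae, and none rose and 3 fell in Zizyphi. In Coptidis and Bupleuri these counts stand beside the shares of all genes given above, and in the other extracts 3.12% to 6.44% of all genes were called higher and 4.28% to 7.34% lower. COL1A1 and COL1A2, the chains of type I collagen, were at -2.14 and -1.62 in Coptidis and at -1.06 ± 0.04 and -1.32 ± 0.03 in Bupleuri. TGIF1, a SMAD co-repressor, rose by 2.57 in Coptidis and 0.55 ± 0.06 in Bupleuri. Among 25 ligands, receptors and SMADs, 10 rose and 9 fell in Coptidis and 8 rose and 9 fell in Bupleuri. GREM1, a BMP antagonist, rose by 2.69 in Coptidis and 1.40 ± 0.07 in Bupleuri, and TGFB3 was at -3.73 and -1.62 ± 0.07. Among the TGF-beta targets, putting the set-aside libraries back left rises and falls of 6 and 10 in Coptidis, 2 and 9 in Bupleuri, 4 and 1 in Aconiti, 1 and 0 in Citri, Cimicifugae and Yijung-tang, and 0 and 0 in Zizyphi. The ligands, receptors and SMADs then numbered 9 and 8 in Coptidis and 4 and 5 in Bupleuri.

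**Figure D4:**
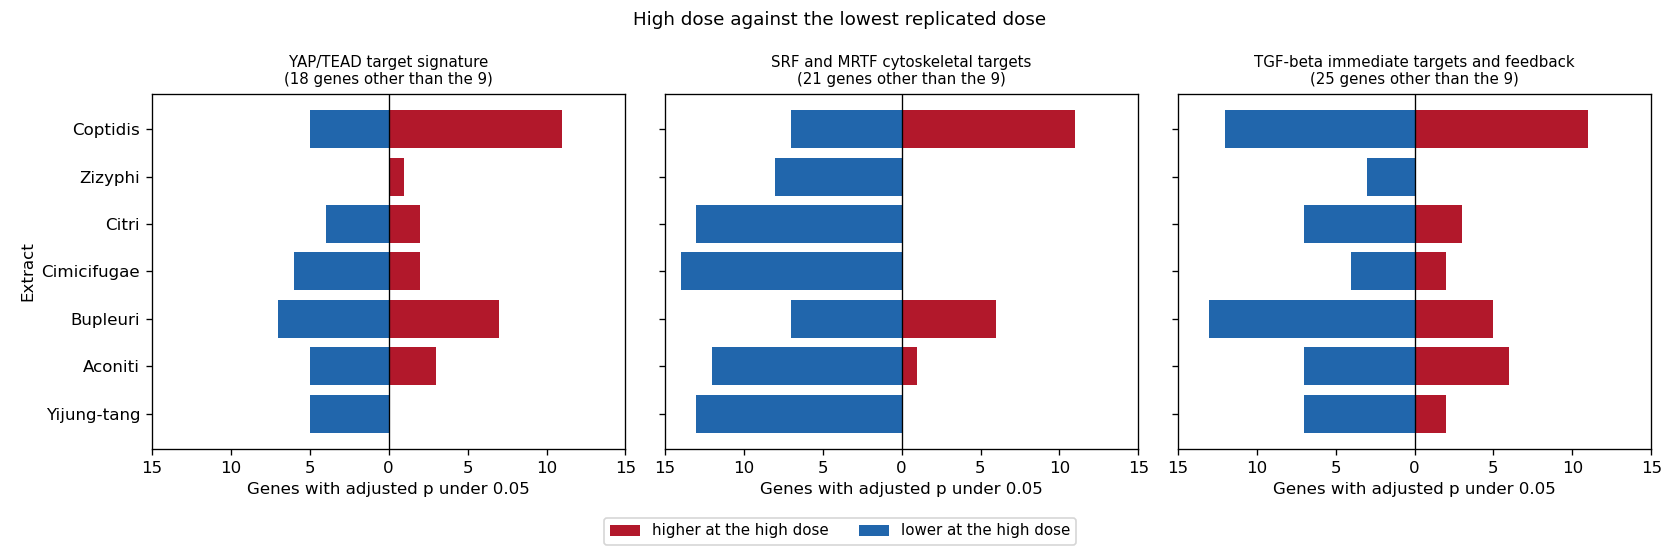
Number of genes of 3 pathway lists (panels, the 9 genes left out) with an adjusted p under 0.05 between the high and the lowest replicated dose of each extract (rows), drawn to the right where higher at the high dose and to the left where lower. Falls outnumber rises in the SRF and MRTF list in every extract other than Coptidis.

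Some groups had 1 library each and no test, namely low-dose Yijung-tang and the 3 doses of Banhasasim-tang. In low-dose Yijung-tang the kept library had 309.6 CPM of CCN1, 101 CPM of CCN2, 13.5 CPM of ANKRD1, 89.9 CPM of ACTA2 and 64.3 CPM of AMOTL2. Banhasasim-tang had 340.1 CPM of CCN1 at the low, 505 CPM at the medium and 406 CPM at the high dose, each above the vehicle range of 197 to 216 CPM. Its ACTA2 was at 104, 118 and 68.1 CPM and its CCN2 at 117, 129 and 72.5 CPM, in both cases above vehicle at the low and medium doses and below it at the high dose. AMOTL2 was at 61.8, 64.9 and 44.4 CPM, against 47.2 to 51.7 CPM in vehicle. TAGLN, at 319.9, 370.0 and 312 CPM, exceeded the vehicle range of 252 to 257 CPM at all 3 doses, and ACTC1 was at 0.944, 0.932 and 0.758 CPM.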

How the data were processed

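RNA of SW1783 cells was sequenced with a directional paired-end kit, per the labels' protocols. The authors deposited RSEM expected counts per gene, from reads trimmed with Trim Galore 0.6.5, aligned with STAR 2.7.3a to GRCh38 (hg38) and counted with RSEM 1.3.3, per the submitters' processing notes; no source used here gives the annotation or strand setting. Deposited expected counts, of which 9.18% were not whole, were rounded, so that a gene with few reads can change by less than 1 count. Of 60675 genes, 17680 passed filterByExpr (minimum count 10). A quasi-likelihood model with 1 mean per group was fitted to 54 libraries in edgeR 4.0.16 (R 4.3.3) with TMM scaling, and p-values were adjusted per comparison (Benjamini-Hochberg, threshold 0.05). The fit was also run on simulated counts with known changes in high-dose Bupleuri. These held no set effect and no divergent library, so they do not bear on either. Libraries of groups with 1 kept library have levels only. Depth was 15996157 to 30990264 counts per kept library.

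Groups came from the sample labels. Alternatives were RLE factors, no filter, DESeq2 1.42.0, unrounded counts, a fit per extract, a replicate block, each library left out, and the 2 set-aside libraries put back. Vehicle is 0.1% DMSO in the sample labels, and the series text gives a higher percentage. The 9 genes, the pathway and marker lists and the tests were chosen with earlier results of these data known. The text names all 9 genes; of each list the called genes with the smallest p in each direction per extract (up to 2); and for each of the 9 the genes with the highest correlation, among genes of at least 1 CPM. Positions are from GENCODE 29.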

Additional observations from a re-analysis of the deposited data

Results flagged for a closer look

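Dose changes that differed between the extracts of a set, tested in the shared edgeR fit, are given as the log2 difference. For Coptidis minus Zizyphi they were CCN1 1.28, CCN2 0.45, ANKRD1 0.90, ACTA2 0.79, TAGLN 0.73, SMAD7 0.34, AMOTL2 -0.47 and ACTC1 -3.27. For Citri minus Cimicifugae CCN1 differed by 0.49. For Bupleuri minus Aconiti they were ANKRD1 0.95, ACTA2 0.56, TAGLN 0.24, AMOTL2 -0.34 and ACTC1 -3.59. The doses within the first and last pair are not matched.

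In the set-aside library of low-dose Yijung-tang, which no comparison used, TAGLN was at 976 CPM on a scaling over all 60 libraries, against 250 to 255 CPM in the vehicle libraries.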

How the results depend on the processing

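Of 270 gene and comparison results for the 9 genes, 140 passed the test; 65 of these passed under every alternative run and 75 did not under at least 1. With both set-aside libraries put back, the calls among the 9 genes numbered 11 (medium dose against vehicle; 26 without them), 3 (low dose; 18), 24 (high against low dose; 41), 7 (differences between extracts; 14) and 28 (high dose against vehicle; 41). Over all genes the calls fell to 19282 for high dose against vehicle (44818 without them), 1578 for the medium (27140) and 254 for the low dose (18207), 12073 for high against low dose (27462) and 6823 for differences between extracts (14116). In the same setting TAGLN turned to 0.057 in high-dose Aconiti against vehicle (-0.31 without them) and to -0.12 for Bupleuri against Aconiti (0.24).

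Leaving out each library in turn gave 37 to 42 calls among the 9 genes for high dose against vehicle, 22 to 27 for the medium, 16 to 19 for the low dose, 37 to 42 for high against low dose and 13 to 14 for differences between extracts, and 40 of the 140 single calls ended without 1 library. Over all genes the ranges were 38552 to 46571, 19565 to 29418, 12286 to 18960, 26134 to 28055 and 13120 to 14523. With RLE factors, no filter, DESeq2, unrounded counts and a fit per extract these counts stayed within 1.5 times. Same-numbered libraries of a comparison deviated together by correlations of at most 0.0848 over all tested genes. That shows no broad pairing by number, but it cannot exclude one in some of the genes. A replicate block gave 42, 26, 18, 41 and 14 calls. A block within each set gave 41 calls for high against low dose and 13 for differences between extracts. There the TAGLN call for Bupleuri against Aconiti ended (0.23, adjusted p 0.0643). Plain totals in place of TMM moved 29 of 189 group levels by 1 SD or more, by at most 16.3%. In high-dose Coptidis cells the levels of all 9 genes were lower on plain totals, as for CCN1 at 749 CPM against 894 CPM. CNN1 and ACTC1 are limited by depth, with few counts per library.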
